A study of Homo sapiens with 5 samples.

Results

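Epithelial and mesenchymal state markers were examined in PC9 cells before and after gefitinib. The markers were the 10 rows of the authors' deposited table whose symbol equals CDH1, EPCAM, ESRP1, ESRP2, GRHL2, OVOL2, VIM, CDH2, FN1 or SNAI2, out of 27477 rows in all. The first 6 are epithelial and the last 4 mesenchymal, and 9 of the 10 had an adjusted p. PC9 is an established human lung adenocarcinoma line with an activating EGFR mutation, and gefitinib inhibits the EGFR kinase. The series holds 3 libraries of untreated parental PC9 cells and 2 libraries of cells given 50 nM gefitinib for 6 days and then growth medium for 3 days, called drug-tolerant here. All libraries came from the same line, grown in serum-containing medium, with no other treatment in the labels. RNA of the drug-tolerant cells was therefore taken after a drug-free interval and not under the drug. The labels do not say whether replicates were separate cultures, so a p-value here reflects no more than how far these libraries spread, and that spread may be technical.

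Epithelial cells are held together by adherens junctions built on E-cadherin and keep an apical and a basal side. In epithelial-mesenchymal transition, transcription factors of the SNAI, ZEB and TWIST families repress E-cadherin and other epithelial genes by binding E-box sequences, and cells take on vimentin filaments, N-cadherin and a fibronectin matrix. GRHL2 and OVOL2 oppose that programme by holding epithelial genes on and ZEB1 off, and ESRP1 and ESRP2 keep splicing in the epithelial pattern. Mesenchymal features have been linked to tolerance of EGFR inhibitors in lung cancer cells, which is the question these genes address.

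The microRNAs of the miR-200 family and miR-205 belong to the same circuit, since they restrain ZEB1 and ZEB2. They are shown with their seed, bases 2 to 8, in capitals, because the seed decides which transcripts they can pair with. Sequences are from RefSeq, build GRCh38.p14, 5′ to 3′.
miR-200b-3p: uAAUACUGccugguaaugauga
miR-200c-3p: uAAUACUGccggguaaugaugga
miR-429: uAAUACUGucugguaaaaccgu
miR-200a-3p: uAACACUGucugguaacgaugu
miR-141-3p: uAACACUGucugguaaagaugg
miR-205-5p: uCCUUCAUuccaccggagucug
The seed AAUACUG is shared by miR-200b, miR-200c and miR-429, and AACACUG by miR-200a and miR-141. The seed of miR-205 is CCUUCAU. These libraries were made from long mRNA, so only the precursor and host genes of these microRNAs were counted, not the mature forms.

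Promoter sequence was matched in RefSeq (GRCh38.p14) for 3 members, FN1, VIM and CDH2. They are the mesenchymal genes with the widest spread between libraries, the lowest measured level with an adjusted p and almost no reads, in that order. The 250 bases before the annotated start are given on the strand of the gene, 5′ to 3′. Capitals mark the cyclic AMP response element TGACGTCA, the GC box GGGCGG on either strand, and TATAA on the gene's strand. The first is bound by CREB family factors and the second by SP1.
FN1, chr2:215436069-215436318, minus strand: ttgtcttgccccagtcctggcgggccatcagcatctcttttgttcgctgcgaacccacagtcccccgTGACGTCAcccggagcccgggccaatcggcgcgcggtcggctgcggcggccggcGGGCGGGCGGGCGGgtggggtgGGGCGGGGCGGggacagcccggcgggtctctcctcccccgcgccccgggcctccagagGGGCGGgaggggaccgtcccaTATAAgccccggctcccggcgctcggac
VIM, chr10:17227991-17228240, plus strand: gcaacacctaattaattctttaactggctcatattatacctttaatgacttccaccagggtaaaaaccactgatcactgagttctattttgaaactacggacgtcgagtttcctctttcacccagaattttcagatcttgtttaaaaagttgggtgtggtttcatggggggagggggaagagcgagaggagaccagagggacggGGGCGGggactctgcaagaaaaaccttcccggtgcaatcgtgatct
CDH2, chr18:28177131-28177380, minus strand: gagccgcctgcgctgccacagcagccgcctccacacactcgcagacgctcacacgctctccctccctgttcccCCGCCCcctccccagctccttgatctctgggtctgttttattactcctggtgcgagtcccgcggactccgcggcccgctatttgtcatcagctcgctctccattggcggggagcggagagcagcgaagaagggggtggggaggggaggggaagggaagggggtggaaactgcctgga
FN1 held 1 response element, which 1.65% of the 35116 promoter windows of this length in the table hold. It also held 6 GC boxes, 5 of which overlap another, and 1 TATAA. VIM and CDH2 held 1 GC box each, a motif present in 42.6% of windows, and TATAA is in 13.6%. The SNAI-type E-box CAGGTG, or CACCTG on the other strand, lies in 17.5% of windows. It was found 0 times in these 3. A second CDH2 start in the table held 1 TATAA and none of the other motifs.

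The deposited table gives 1 mean level per gene over all libraries. Low and moderate means could be taken apart into whole reads for each library. Each mean adds up whole reads, each worth 1 of 5 known steps, and the authors' fold change and standard error narrow how the reads are split. Together these left 1 set of reads for 7 of the 10 members. CDH1 had 2 sets, ESRP1 3 and EPCAM 70. For these the fitted dispersion, a gene's spread beyond counting error, selected 1 set. Within each group libraries carry letters by falling size factor, the authors' scaling for depth (parental a to c, drug-tolerant a and b), because no replicate number could be assigned to them. Depth was about 14.2 to 21.4 M counted reads per library. Levels below are reads divided by the size factor, called normalised reads.

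The parental libraries were not alike. Over genes with a mean level of 10 to 1000, the reads of parental b and c differed by a chi-square of 1.72 per degree of freedom, and those of the drug-tolerant libraries by 1.53, where 1 is counting error alone. Both pairs therefore differed beyond counting error in that range. Below a mean level of 10, parental b and c stood at 1.04 (chi-square p 0.12), which counting error alone could give. The drug-tolerant pair still differed there (chi-square p 0.00098). Such differences may be technical, so they cannot show whether the libraries came from separate cultures. Each library was counted as 1 sample all the same. In the range of 10 to 1000, parental a stood at 43.9 and 45.5 from parental b and c. It was nearer the drug-tolerant libraries, at 7.46 and 6.83. Of 11045 genes in that range, 75.0% had parental b and c both above or both below the other 3 libraries. Results for the members are for that reason given against parental a and against parental b and c as well as against all 3.

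None of the 9 members with an adjusted p was called at an adjusted p under 0.05 (DESeq2) in the authors' deposited table, where 0.552% of the 15223 genes with one were called. Their adjusted p ran from 0.48 to 0.95 in the authors' deposited table, and 0 had an unadjusted p under 0.05, against 10.8% of all genes tested. Of the log2 fold changes in the authors' deposited table, positive where drug-tolerant cells are higher, 6 of the members' were above 0 and 3 below. Its median over the 6 epithelial members was 0.30 and over the 3 tested mesenchymal members 0.41, beside -0.018 over all genes tested in the authors' deposited table. In read values, 5 members had both drug-tolerant libraries above all 3 parental ones and 0 had both below. Among the 11045 genes, 18.4% were placed the first way and 17.2% the second, 35.6% in all. Those 5 were CDH1, ESRP2, GRHL2, VIM and SNAI2, a mixture of epithelial and mesenchymal genes. With libraries scaled by their totals CDH1 and GRHL2 leave the 5, since parental a is then no longer below drug-tolerant a. CDH1, EPCAM and ESRP1 lie above the range of mean level of the 11045 genes, and CDH2 below it. Without parental a, 7 members were above and 1 below, where 41.5% and 43.0% of those genes were, and without parental b and c 7 were above and 2 below, where 41.9% and 39.0% were. Members were called 0 times too with p-values adjusted over genes of a mean level of at least 50 (0.722% of genes called), over every gene with a p (0.218%), at a threshold of 0.01 (0.256%) and with the Wald score centred and scaled (0.00657%). VIM, at a mean level of 32.3, was not tested in the first of these. With 2 libraries against 3, no exact permutation test can give a two-sided p under 0.1.

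**Figure D1:**
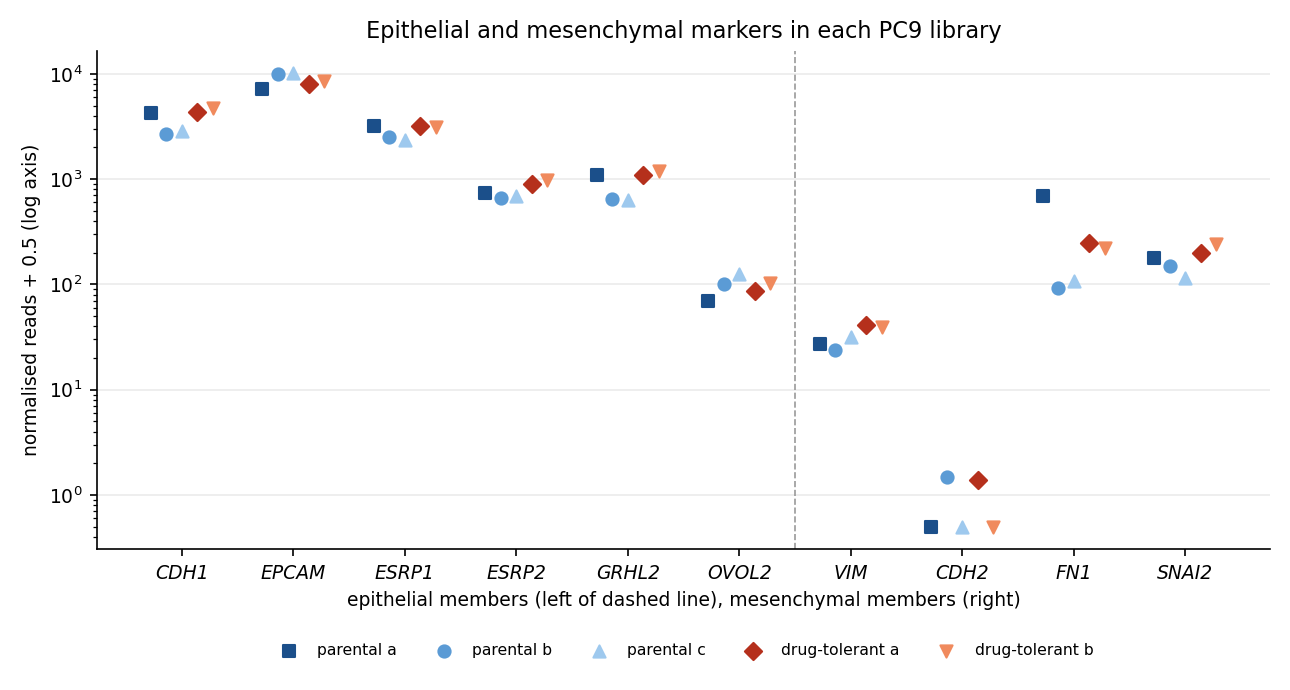
Normalised reads plus 0.5 (log axis) of each member in each of the 5 libraries, with epithelial genes left of the dashed line. Each symbol is 1 library. Parental a lies with the drug-tolerant libraries for CDH1, ESRP1 and GRHL2 and above every other library for FN1, while CDH2 has at most 1 read in any library.

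CDH1 encodes E-cadherin, the adherens junction cadherin of epithelia (ENSG00000039068, chromosome 16, 68737225 to 68835548, GRCh38). Parental a had 4259 normalised reads, parental b 2706 and parental c 2888. The drug-tolerant libraries had 4341 and 4696. Parental a lay just under the drug-tolerant libraries and far above the other parental ones, so the groups did not overlap but the gap was narrow. For CDH1 the authors' deposited table gives a log2 fold change of 0.40 ± 0.27 (SE; adjusted p 0.52, DESeq2; 95% interval -0.14 to 0.94). Group means were 3284 ± 849 (SD, n = 3) and 4519 ± 250 (SD, n = 2), with an exact permutation p of 0.2. Drug-tolerant cells were 1.06-fold above parental a and 1.62-fold above parental b and c. Parental a itself was 1.52-fold above parental b and c.

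EPCAM, an epithelial surface adhesion molecule (ENSG00000119888, chromosome 2, 47345158 to 47387601), had the highest level of the 10. It stood at 7103 normalised reads in parental a, 9953 in parental b and 10083 in parental c, with 8062 and 8575 in drug-tolerant cells. The drug-tolerant values lay above parental a and below parental b and c, so the groups overlapped. The authors' deposited table lists EPCAM at -0.11 ± 0.25 on the log2 scale (adjusted p 0.85, DESeq2; 95% interval -0.60 to 0.39). Drug-tolerant cells were 1.17-fold above parental a and at 0.830 of the level in parental b and c, opposite directions. For EPCAM 70 sets of reads met the mean, fold change and standard error, and the authors' dispersion estimate separated them by the smallest margin of any member.

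ESRP1 and ESRP2 are RNA-binding proteins that set epithelial splice choices in genes such as FGFR2 and ENAH. ESRP1 (ENSG00000104413, chromosome 8, 94641074 to 94707466) had 3191, 2497 and 2359 normalised reads in parental a, b and c, with 3160 and 3103 in drug-tolerant cells. Parental a was the highest of the 5, so the groups overlapped. ESRP1 is at 0.20 ± 0.24 on the log2 scale of the authors' deposited table (adjusted p 0.68, DESeq2; 95% interval -0.27 to 0.67). Against parental a the ratio was 0.981 and against parental b and c 1.29. ESRP2 (ENSG00000103067, chromosome 16, 68229111 to 68238102) had 743, 657 and 685 normalised reads in the parental libraries and 906 and 979 in the drug-tolerant ones. Relative to its mean, ESRP2 was the epithelial member with the least spread among parental libraries, at 695 ± 43.6 (SD, n = 3), and the drug-tolerant mean was 942 ± 51.6 (SD, n = 2), with an exact permutation p of 0.1. In the authors' deposited table ESRP2 has a log2 fold change of 0.40 ± 0.22 (adjusted p 0.48, DESeq2; 95% interval -0.025 to 0.83), the smallest adjusted p of the members. Drug-tolerant cells were 1.27-fold above parental a and 1.40-fold above parental b and c, so the direction was the same against either. Per kilobase of transcript, ESRP1 stood at 3.16 to 4.28 times ESRP2 over the 5 libraries. ESRP2 overlaps NFATC3 on the opposite strand, which had 396, 225 and 206 normalised reads in parental a, b and c against 492 and 496 in drug-tolerant cells. The kit was stranded, but whether reads were counted by strand is not given in the sources used here, so reads of the 2 genes may not be separate.

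GRHL2, a grainyhead transcription factor that maintains CDH1 and other junction genes (ENSG00000083307, chromosome 8, 101492432 to 101669726), had 1086 normalised reads in parental a, 642 in parental b and 634 in parental c. The drug-tolerant libraries had 1091 and 1195. The groups did not overlap, but parental a lay just under drug-tolerant a. GRHL2 was not called in the authors' deposited table, at 0.45 ± 0.30 on the log2 scale (adjusted p 0.51, DESeq2; 95% interval -0.13 to 1.04), and the exact permutation p was 0.2. The drug-tolerant level was 1.05-fold that of parental a and 1.79-fold that of parental b and c. Parental a was 1.70-fold above parental b and c.

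OVOL2, a zinc finger repressor of ZEB1 and other mesenchymal genes (ENSG00000125850, chromosome 20, 17956979 to 18059188), had 69.7, 101 and 126 normalised reads in parental a, b and c, with 86.4 and 103 in drug-tolerant cells. The drug-tolerant values lay inside the parental range. Its value in the authors' deposited table is -0.052 ± 0.33 (log2 fold change; adjusted p 0.95, DESeq2; 95% interval -0.69 to 0.59), and the ratio was 1.35 against parental a and 0.835 against parental b and c. The OVOL2 locus overlaps SNX5 on the same strand and MGME1 on the opposite one, both with more reads than OVOL2. In all, 7 members had 15 overlapping genes with a row, and apart from NFATC3, SNX5 and MGME1 none of these had a mean level above 23.1 in the authors' deposited table.

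VIM encodes vimentin, the intermediate filament of mesenchymal cells (ENSG00000026025, chromosome 10, 17228259 to 17237593). Only 24 to 46 reads per library were counted, giving 26.9, 23.6 and 31.2 normalised reads in parental a, b and c, with 40.6 and 39.3 in drug-tolerant cells. Both drug-tolerant libraries were above all parental ones, and parental a lay between b and c. VIM was the tested member whose difference depended least on the parental library, at 1.48-fold over parental a and 1.46-fold over parental b and c. The exact 95% counting intervals of single libraries overlapped between groups. Their outer bounds were 15.1 and 44.6 over the parental libraries and 26.7 and 55.8 over the drug-tolerant ones. These intervals cover the counting error of a single library only, not that of the group means. Its log2 fold change was 0.41 ± 0.36 by the authors' deposited table (adjusted p 0.58, DESeq2; 95% interval -0.29 to 1.11), and the exact permutation p was 0.1. VIM-AS1, the antisense gene at this locus, is listed by the authors' deposited table at a mean of 6.49 and a log2 fold change of -0.32 ± 0.39, with no adjusted p. Per kilobase, CDH1 stood at 40.4 to 69.2 times VIM in the parental libraries and at 46.7 and 52.2 times VIM in the drug-tolerant ones, so the drug-tolerant ratios lay inside the parental range.

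CDH2 encodes N-cadherin, the cadherin that commonly replaces E-cadherin in mesenchymal cells (ENSG00000170558, chromosome 18, 27950966 to 28177446). It had 2 reads in all, 1 in parental b and 1 in drug-tolerant a. The authors' deposited table lists a mean of 0.373 and no adjusted p. Each library was under the limit of 3 reads that a count of 0 allows, so CDH2 was not detectable at this depth in either group and no fold is given. The highest upper bound of the exact 95% counting intervals was 5.48 normalised reads.

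FN1 encodes fibronectin, an extracellular matrix glycoprotein and integrin ligand (ENSG00000115414, chromosome 2, 215360440 to 215436172). Parental a had 688 normalised reads, parental b 91.4 and parental c 107, while the drug-tolerant libraries had 247 and 222. The drug-tolerant libraries agreed closely with each other and lay above parental b and c and below parental a. Parental a was 6.91-fold above parental b and c, the widest gap within the parental group among the members. Only 247 of the 11045 genes with a mean level of 10 to 1000, or 2.2%, had a log2 difference at least as high in that direction. FN1 stands at -0.17 ± 0.41 (log2 fold change) in the authors' deposited table (adjusted p 0.85, DESeq2; 95% interval -0.97 to 0.63). FN1 in drug-tolerant cells was at 0.341 of the level in parental a and 2.36-fold that in parental b and c. The mean of the parental libraries was 295 ± 340 (SD, n = 3), and parental a gave most of it. On the mean of log2 values, where parental a weighs less, the difference was 0.31, opposite in sign to the deposited value, with an exact permutation p of 1. That difference was 1.24 without parental a, -0.21 without parental b and -0.10 without parental c.

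SNAI2 encodes SLUG, an E-box repressor of CDH1 (ENSG00000019549, chromosome 8, 48917604 to 48921740). It had 179, 148 and 115 normalised reads in parental a, b and c, with 198 and 243 in drug-tolerant cells. Both drug-tolerant libraries were above all parental ones, with parental a the nearest. SNAI2 has 0.49 ± 0.29 as log2 fold change in the authors' deposited table (adjusted p 0.50, DESeq2; 95% interval -0.085 to 1.07), the largest among the members, and the exact permutation p was 0.2. The ratio was 1.23 against parental a and 1.68 against parental b and c. SNAI2 and its target CDH1 were thus both placed higher in drug-tolerant libraries, without a call for either. For CDH1 the exact 95% counting intervals of parental a (4143 to 4378) and drug-tolerant a (4221 to 4464) overlapped. Its groups also overlapped with libraries scaled by their totals.

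**Figure D2:**
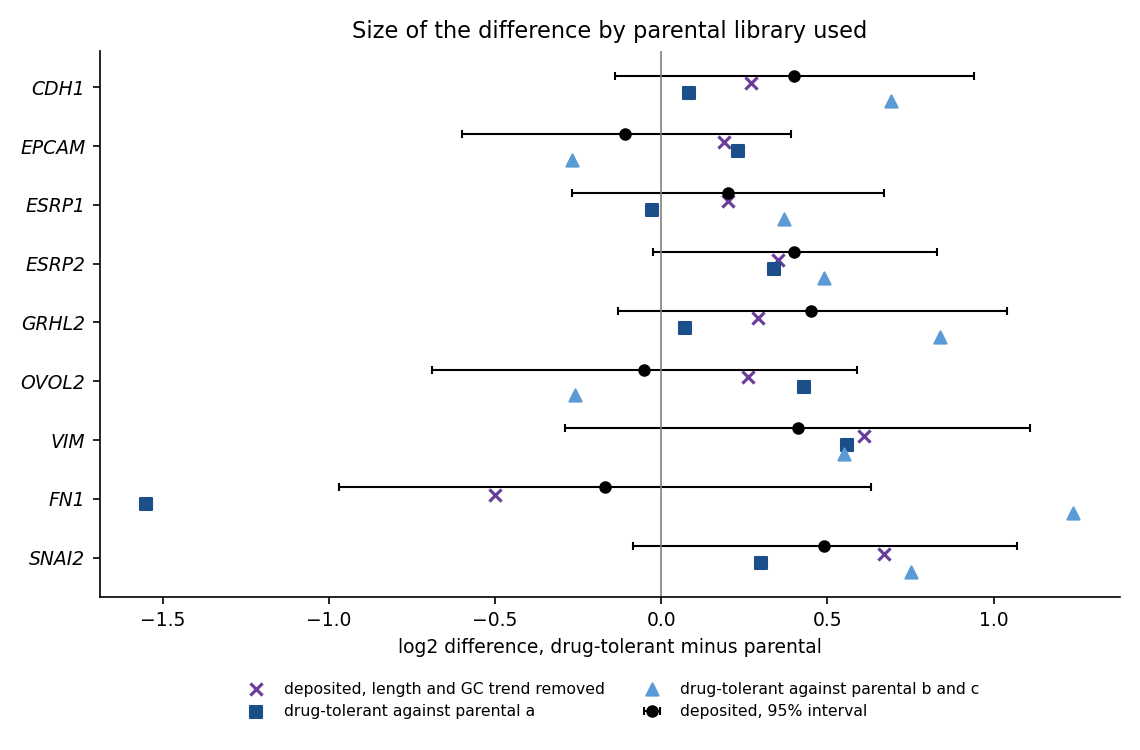
Log2 difference, drug-tolerant minus parental, for the 9 tested members. Black points are the deposited values with 95% intervals, crosses the same with the trend on length and GC content taken out, squares the difference from parental a and triangles that from parental b and c; all intervals include 0, and for FN1 the square (-1.55) and the triangle (1.24) lie on opposite sides of 0.

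Levels could be ordered within a library only per length of transcript. In normalised reads per kilobase, EPCAM was first in all libraries, from 4120 to 5848. CDH1 (553 to 960) and ESRP1 (620 to 838) followed and overlapped each other. ESRP2 (173 to 258) and GRHL2 (121 to 228) overlapped each other in turn. OVOL2 (44.8 to 81.0) and SNAI2 (47.2 to 100) had overlapping ranges as well, with OVOL2 the lower in parental a and both drug-tolerant libraries, and the FN1 range, 10.3 to 77.2, overlapped both that pair and VIM, which reached at most 19.0. The 5 epithelial members other than OVOL2 were above every mesenchymal member in every library, before and after the drug, on this scale. The ratio of EPCAM to CDH1 per kilobase was 10.4 and 9.90 in parental b and c, 4.73 in parental a, and 5.27 and 5.18 in drug-tolerant cells.

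The place of parental a among the libraries varied with transcript length, over all genes and among the members. Tested protein-coding genes were put in 10 groups by length, and medians were taken over those with a mean level of 10 to 1000. The median log2 difference between parental a and the mean of parental b and c went from -0.98 in the shortest group to 1.08 in the longest. The medians for drug-tolerant cells against parental a stayed between -0.097 and 0.13. Against parental b and c they went from -0.83 in the shortest group to 0.93 in the longest. The deposited log2 fold change also rose with length, with a Spearman correlation of 0.54 across genes. EPCAM (1724 nucleotides) and OVOL2 (1555 nucleotides), the members with the shortest transcripts, had parental a below b and c, by -0.50 and -0.69, beside a median of -0.61 for their length group. CDH1 (4889 nucleotides) and GRHL2 (5239 nucleotides) had parental a above b and c by 0.61 and 0.77, beside 0.42 for their group. Drug-tolerant cells were above parental b and c by 0.69 for CDH1 and 0.84 for GRHL2, beside a group median of 0.38. ESRP1 and ESRP2, of 3806 and 3793 nucleotides, were at 0.39 and 0.15, beside 0.048. VIM was at -0.015, beside -0.37, and SNAI2 at 0.45, beside -0.23, so both lay above the medians of genes of their length. FN1, with the longest transcript at 8905 nucleotides, was at 2.79, beside a median of 1.08 and a 95th percentile of 2.54 for its group. In all, 6 members had parental b and c both below the other libraries, as 36.9% of genes did, and EPCAM had them both above, as 38.1% did. These 7 of 10 are near the 75.0% of genes with a mean level of 10 to 1000. CDH1, EPCAM, ESRP1 and CDH2 lie outside that range.

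**Figure D3:**
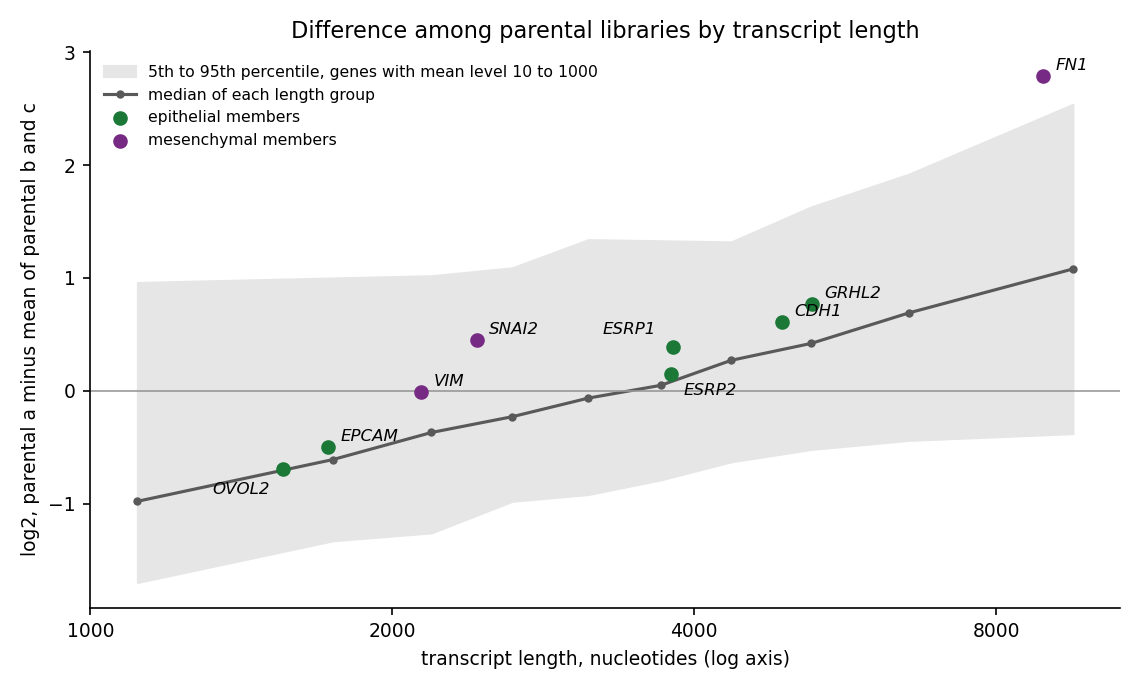
Log2 difference between parental a and the mean of parental b and c against transcript length (log axis). The line joins the medians of 10 length groups of genes with a mean level of 10 to 1000, the band spans their 5th to 95th percentiles, and points are members other than CDH2; all lie within the band except FN1 at 2.79.

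With the trend of fold change on transcript length and GC content removed, all 6 epithelial members were above 0, with a median of 0.26. EPCAM moved from -0.11 to 0.19 and OVOL2 from -0.052 to 0.26 on the scale of the authors' deposited table. CDH1 was then at 0.27, ESRP1 at 0.20, ESRP2 at 0.35 and GRHL2 at 0.29. Among mesenchymal members VIM was at 0.61, SNAI2 at 0.67 and FN1 at -0.50. None was called, with adjusted p from 0.48 to 0.91, where 0.546% of genes were called.

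Of the wider programme, 106 genes in 9 lists were followed, and 91 had an adjusted p. By DESeq2, 0 of them were called higher and 0 lower in the authors' deposited table, and 10 had an unadjusted p under 0.05, beside 10.8% of all genes tested. In the 27 junction and surface genes of epithelia the median log2 fold change was -0.19, with 8 above 0 and 19 below. It was -0.14, with 7 above 0, once the trend on length and GC content had been taken out. LSR, a tricellular junction receptor, had 2439, 4691 and 4832 normalised reads in parental a, b and c against 2295 and 2249 in drug-tolerant cells, with -0.67 ± 0.31 in the authors' deposited table (adjusted p 0.45). The tight junction gene CLDN7 had 2137, 4298 and 4504 against 2160 and 2054 normalised reads, again with parental a beside the drug-tolerant libraries. PRSS8, a membrane protease of epithelia, had 672, 834 and 964 in the parental and 454 and 459 in the drug-tolerant libraries, so all 3 parental values were above the drug-tolerant ones. PRSS8 was at -0.76 ± 0.26 (adjusted p 0.19) in the authors' deposited table. Of the 21 list genes with reads per library, 3 were higher and 7 lower in both drug-tolerant libraries than in all parental ones. Among genes with a mean level of 10 to 1000 the shares were 18.4% and 17.2%. Many of the list genes, LSR and CLDN7 among them, lie above that range. Reads per library were not recovered for the 4 keratins KRT7, KRT8, KRT18 and KRT19, filament proteins of simple epithelia, whose log2 fold changes of -0.60, -0.11, -0.33 and -0.56 in the authors' deposited table were all below 0 and not called (adjusted p 0.45 to 0.84). With the trend on length and GC content taken out they were at -0.35 for KRT7, 0.028 for KRT8, -0.05 for KRT18 and -0.23 for KRT19, so KRT8 turned sign, and the list median went from -0.44 to -0.14.

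Among 11 tested epithelial transcription factors, 9 were above 0, with a median of 0.051. ELF5, an ETS factor of secretory epithelia, had 339, 305 and 301 normalised reads in parental a, b and c against 591 and 541 in drug-tolerant cells. That placed all parental libraries together and both drug-tolerant ones above them. ELF5 had 0.77 ± 0.23 in the authors' deposited table (adjusted p 0.09, DESeq2). With the trend on length and GC content taken out ELF5 was at 0.94 with an adjusted p of 0.013, so it was called there, alone among the programme genes. GRHL3, related to GRHL2, had 180, 304 and 272 against 355 and 370 normalised reads. FOXA1, a pioneer factor of endodermal epithelia, had 903, 966 and 878 against 1115 and 1126 normalised reads. GRHL3 stood at 0.45 ± 0.29, FOXA1 at 0.27 ± 0.21 and the ETS factor EHF at 0.60 ± 0.37 in the authors' deposited table, none called.

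Transcription factors that drive the mesenchymal state had a median of -0.13 over 8 tested genes, with 3 above 0. Once the trend on length and GC content had been taken out, the median was -0.0064, with 4 above 0. SNAI1, the paralog of SNAI2, had 15.1, 26.5 and 26.0 normalised reads in the parental and 9.70 and 21.6 in the drug-tolerant libraries. FOXC1 had 560, 486 and 442 against 682 and 635, TCF3 1436, 1876 and 1905 against 1929 and 1993, and KLF8 474, 200 and 199 against 376 and 333 normalised reads. ZEB1, chosen after its values were seen, had 6.72, 0.983 and 1.04 normalised reads in parental a, b and c against 14.1 and 11.4 in drug-tolerant cells. Its groups did not overlap, but its mean level was too low for an adjusted p and below the range for which shares of genes are given. ZEB2, its paralog, had 7.56, 1.97 and 9.37 against 3.53 and 1.27, and TWIST1 14.3, 13.8 and 16.7 against 10.6 and 13.9 normalised reads. Groups overlapped for ZEB2 and TWIST1, and these 2 were likewise chosen after their values were seen. Log2 fold changes were 0.70 ± 0.39 for ZEB1, -0.37 ± 0.37 for ZEB2 and -0.17 ± 0.40 for TWIST1 in the authors' deposited table. ZEB1 and ZEB2, without an adjusted p, are not in the median of this list.

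For mesenchymal matrix and adhesion genes the median was -0.044 over 15 tested genes, with 6 above 0 and 9 below. It was -0.16, with 7 above 0, once the trend on length and GC content had been taken out. ITGA5, the alpha chain of the fibronectin receptor, had 1871, 1575 and 1652 normalised reads in the parental and 2815 and 2657 in the drug-tolerant libraries. ITGA5 was at 0.63 ± 0.22 (adjusted p 0.21, DESeq2) in the authors' deposited table, so the receptor was placed higher in both drug-tolerant libraries while FN1, its ligand, lay between the parental libraries. MMP14, a membrane collagenase, had 107, 119 and 108 against 59.1 and 58.3 normalised reads. AXL, a receptor kinase often raised in mesenchymal cells, had 336, 247 and 201 against 148 and 133 normalised reads. MMP14 was at -0.79 ± 0.29 (adjusted p 0.29), AXL at -0.75 ± 0.30 (adjusted p 0.37) and the collagen gene COL6A1 at 0.67 ± 0.35 (adjusted p 0.47) in the authors' deposited table. Of 5 tested actin cytoskeleton genes, TPM1 had 2892, 3102 and 3148 against 2064 and 2074 normalised reads and TPM2 112, 84.5 and 82.2 against 140 and 122. TPM1, TPM2, TAGLN and ZYX were at -0.52 ± 0.20, 0.42 ± 0.30, -0.31 ± 0.39 and -0.12 ± 0.29 in the authors' deposited table, none called, and the list median was -0.12.

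Splicing factors that act beside the ESRP proteins had a median of 0.15 over 10 genes, 9 of them above 0, beside 48.4% of all genes tested. With the trend on length and GC content taken out the median was 0.036 and 6 of the 10 were above 0, with CELF1 at -0.057 and QKI at -0.10. The values were 0.40 ± 0.28 for MBNL1, 0.23 ± 0.24 for CELF1, 0.20 ± 0.21 for QKI and 0.17 ± 0.20 for PTBP1 in the authors' deposited table, and none was called. Genes whose exons the ESRP proteins choose had a median of 0.46, with all 9 tested genes above 0, beside 48.4% of all genes. Of the 7 with reads, 5 had both drug-tolerant libraries above all parental ones. Among genes with a mean level of 10 to 1000, a range that several of the 7 exceed, 18.4% did. The transcripts of the tested list genes were long, with a median of 6889 nucleotides. Parental a was above parental b and c by a median of 0.50, and drug-tolerant cells were above parental a by a median of 0.058. The median was 0.19, with 8 of the 9 above 0, once the trend on length and GC content had been taken out, and the part of length in these values was not tested further. RALGPS2 had 3532, 2028 and 1816 normalised reads against 4133 and 3840, and ARHGEF11 1226, 816 and 822 against 1508 and 1407. These are gene totals, and splice forms were not measured. SCRIB and SLK, the other genes named for this list, were at 0.39 ± 0.22 and 0.60 ± 0.34 in the authors' deposited table.

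MIR200CHG, the host gene of miR-200c and miR-141, had 8.39, 21.6 and 22.9 normalised reads in parental a, b and c against 7.94 and 7.61 in drug-tolerant cells. Parental a again lay with the drug-tolerant libraries. MIR200CHG was at -0.58 ± 0.41 (adjusted p 0.53) and MIR205HG, the host of miR-205, at -0.11 ± 0.25 (adjusted p 0.85) in the authors' deposited table. The precursor genes MIR200A, MIR200B, MIR429 and MIR141 had 8, 11, 10 and 2 reads over all libraries, too few for an adjusted p.

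**Figure D4:**
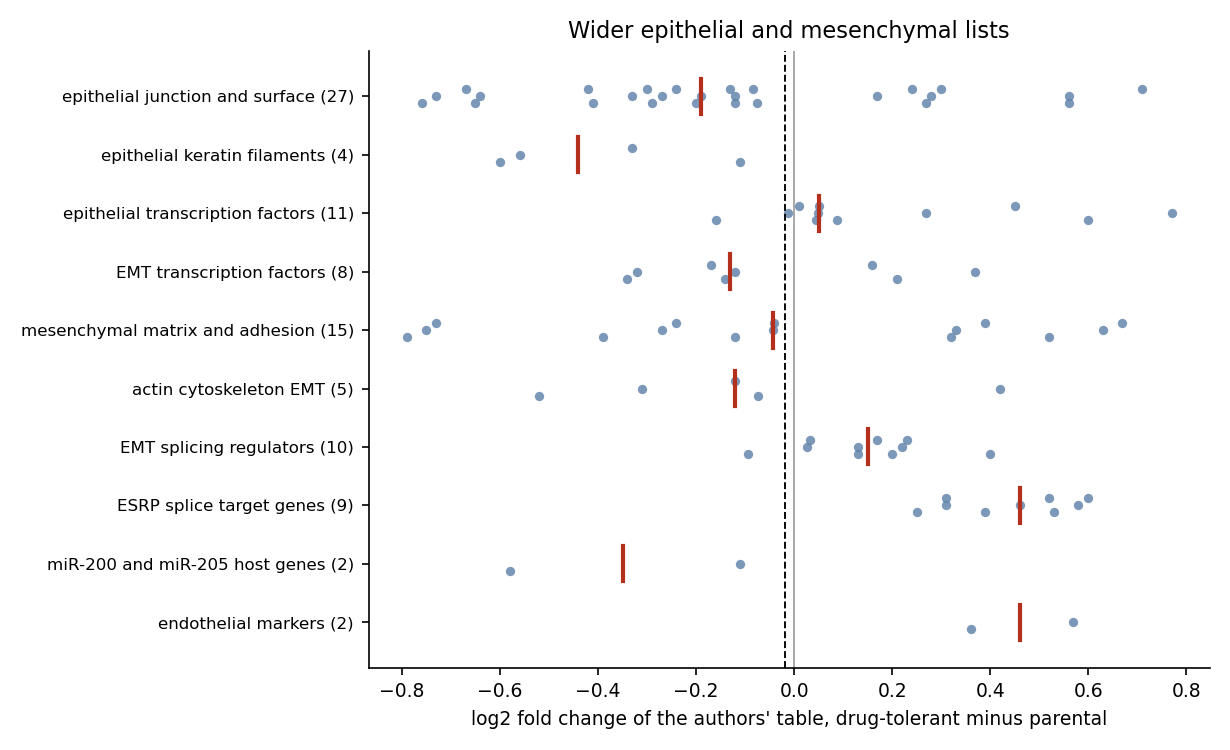
Log2 fold change, from the authors' deposited table, for every tested gene of each list with more than 1 tested gene, with the number tested in brackets. Red bars are list medians and the dashed line the median of all tested genes, -0.018; all values lie between -0.79 and 0.77, and the ESRP splice target genes have the highest median beside the endothelial markers, at 0.46 each.

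Among markers of other cell types there were rows for 3 of 10 fibroblast, 5 of 7 haematopoietic and 3 of 5 endothelial genes. The fibroblast list summed to 125 to 199 normalised reads in the parental and 171 and 165 in the drug-tolerant libraries, nearly all from COL1A1, and the authors' deposited table gives mean levels of 0.353 for PDGFRB and 0.803 for THY1. The haematopoietic list summed to between 20.8 and 64.6 normalised reads in the parental and 17.7 and 40.6 in the drug-tolerant libraries, with ITGAM the highest. The endothelial list summed to 1352 to 1894 in the parental and 2485 and 2238 in the drug-tolerant libraries, almost all of it from PECAM1, whose mean level was 1616, and CDH5, at 253 in the authors' deposited table. VWF, a defining endothelial gene, had a mean of 6.61 in the authors' deposited table. The part of these genes in the results above was not tested. In bulk RNA, fewer cells of a type and less RNA per cell cannot be told apart. The levels of EPCAM, CDH1 and the keratins fit the label of an epithelial line.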

How the data were processed

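Stranded mRNA libraries of 3 parental and 2 drug-tolerant PC9 samples were compared. The submitters' processing notes name STAR, FastQC, DESeq2 and build hg38; how reads were counted, on which annotation and with which versions is not given in the sources used here. Each deposited mean level is a signal, reads over size factor averaged by the authors. The deposited fold changes, moderated towards 0, and standard errors are log2 values. The deposited Wald score is their ratio, and p-values and adjusted p-values are the authors' own. A gene is called at an adjusted p under 0.05. The test planned for counts was not run because the table holds none.

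Reads per library were recovered from the mean, fold change and standard error by refitting the authors' model for every candidate set of whole reads, with a fold change tolerance of 2e-09 and the dispersion as a further check (tolerance 0.001, or 0.02 for a lone set). This resolved 99.6% of 11090 genes with a mean of 10 to 1000. Above that, up to a mean of 10500, it was run on members and list genes only and resolved 43 of 52, CDH1, EPCAM and ESRP1 among them. Tested on simulated data, the procedure resolved 294 of 295 genes, 0 of them wrongly. Its error above a mean of 1000, where CDH1, EPCAM and ESRP1 lie, was not tested separately. Which 3 libraries are parental follows from the sign of their pull on the fold change. Ratios use log2(normalised reads + 0.5) and exact two-sided permutation tests over 5 libraries. Lengths and GC content are of the longest coding transcript in GENCODE 29 (GRCh38). The trend on them was fitted over 12455 tested genes. Of 128 list genes, 110 had a row.

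The members and lists were chosen with earlier results of these data known. Named genes are the members, from each list up to 4 genes of lowest adjusted p whose mean reaches 10, the highest gene of each list of other cell types, and genes overlapping a member; others are said to be chosen later. A gene that this rule names is not reported here. Scripts ran in Python 3.11.15, NumPy 2.4.6 and SciPy 1.17.1. The closing section gives the alternatives tried.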

Additional observations from a re-analysis of the deposited data

How the results depend on the processing

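No call of a member differed under any alternative tried on the deposited values, since none was called under adjustment with no filter on low counts, a mean of at least 50, a centred and scaled score, a threshold of 0.01 or a fit without the length and GC trend. VIM, at a mean level of 32.3, was not tested with a mean of at least 50, and CDH2 was tested only with no filter. The counts of called genes, 40 higher and 44 lower, became 1 and 0 with the Wald score centred and scaled and 25 and 14 at a threshold of 0.01, and the lower count was 26 with no filter on low counts. Taking out the trend on length and GC content turned EPCAM to 0.19 and OVOL2 to 0.26; the cause was not tested. Without parental b and parental c the log2 ratio turned for EPCAM (0.23), ESRP1 (-0.027), OVOL2 (0.43) and FN1 (-1.55). Leaving out 1 library at a time gave 0.36 to 0.69 for CDH1, -0.27 to -0.016 for EPCAM, 0.15 to 0.37 for ESRP1, 0.38 to 0.50 for ESRP2, 0.45 to 0.84 for GRHL2, 0.46 to 0.66 for VIM and 0.43 to 0.75 for SNAI2, all of 1 sign. It gave -0.26 to 0.16 for OVOL2 and -0.21 to 1.24 for FN1, of both signs. No ratio is given for CDH2. Without parental a FN1 was at 1.24, without parental b at -0.21 and without parental c at -0.10, and the highest values for CDH1 and GRHL2 were without parental a. Chosen after seeing the data, the count of members with both drug-tolerant libraries above was 7 without parental a (41.5% of genes) and 7 without parental b and parental c (41.9%). The count below was 1 without parental a (EPCAM), where 43.0% of genes were placed so. It was 2 without parental b and parental c (ESRP1 and FN1), where 39.0% were. Scaling by library totals and a pseudocount of 1 turned the sign of no member. With library totals the exact permutation p of CDH1 and of GRHL2 was 0.3 instead of 0.2. That value is reached only if parental a is not below drug-tolerant a, so the groups of CDH1 and GRHL2 then overlapped. No paired analysis was possible because the libraries could not be matched to replicate numbers.

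Depth limits CDH2, with 2 reads in all, and VIM, whose counting intervals for single libraries overlap between groups. Fold changes are moderated, so those of low genes are understated. With 2 libraries against 3 the smallest exact p is 0.1.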
